A study of Mus musculus with 116 samples.

Results

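The 7 genes described here, Dux, Zscan4c, Zscan4d, Zscan4f, Tcstv1, Tcstv3 and Usp17lc, belong to 4 mouse gene families known for a burst of expression at the 2-cell stage. They were chosen by symbol among the 24028 gene symbols shared by the 4 deposited tables, and each had 1 row in every table. Dux encodes a double homeodomain transcription factor that, in mouse embryonic stem cells, binds and activates the genes of the other families. The Zscan4 genes encode zinc finger proteins of the 2-cell embryo that are linked to telomere maintenance in mouse embryonic stem cells. The Usp17l genes encode deubiquitinases, and the Tcstv genes are named for their variable expression at the 2-cell stage. All 4 families lie in clusters or arrays of near-identical copies.

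The series examined RNA polymerase II and the activation of the embryonic genome in mice. Its RNA libraries, all of wild-type genotype, covered MII oocytes (mature oocytes, taken 13 h after the ovulation hormone hCG), PN5 zygotes (the late pronuclear stage, 30 h), early 2-cell embryos (36 h), late 2-cell embryos and the inner cell mass of blastocysts (ICM, 98 h). Late 2-cell embryos came from zygotes taken at 23 h and held for 14 h in 60 uM DRB, which blocks RNA polymerase II from elongating transcripts, or in 0.1% DMSO, then released on entering the 2-cell stage and cultured for 12 h. The DRB library is labelled mTBE, an abbreviation that the labels do not expand, and its column in the deposited table is headed DRB. The DMSO library is called control. Embryos came from C57BL/6N females crossed to PWK males, all females were 8 weeks old, and each of the 5 total RNA libraries pooled about 100 oocytes or embryos. Each total RNA group held 1 library, so differences among them could not be checked against replicates and carry no p-value. The 2 ICM libraries were made from polyadenylated RNA by Smart-seq2. A further 109 samples, none of them used here, complete the series.

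Values are the authors' FPKM, which scales fragments by transcript length and by library. The deposited FPKM summed to between 212639 and 474686 per library, and 9396 to 13022 genes reached 1 FPKM. PN5, mTBE and control share a table, whereas MII, early 2-cell and ICM values were normalized in separate tables. All 10 oocyte markers examined were at 1 FPKM or more in each of the 5 total RNA libraries. The ICM libraries held all 10 inner cell mass markers at 1 FPKM or more, but also all 10 trophectoderm markers, whose FPKM summed to 3447 and 2978 against 7.11 to 108 in the total RNA libraries. Cumulus and granulosa markers reached 1 FPKM for 2 of 10 genes in MII, PN5 and early 2-cell and for 6 of 10 in both late 2-cell libraries.

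Where upstream sequence was found, the Zscan4 copies are alike even there, and so are most Usp17l copies. RefSeq windows of GRCm38.p6, from 250 bases before to 50 bases after the annotated start, were found for 4 of the 7 members. Over the aligned windows Zscan4c and Zscan4f differed at 2 of 277 bases (99.3% identity), and Usp17lc was 96.8% identical to its family copy Usp17ld and 86.0% to Usp17lb. The 3 Zscan4 members are shown for that likeness, over 90 bases around the TATAAA motif that precedes their starts (capitals). Usp17lc is shown with 2 copies outside the 7 genes, Usp17ld and Usp17la, because Usp17la has another 6 letters at the same place (capitals). The stretches lie at chr7:11005631-11005720 (Zscan4c, + strand), chr7:11166184-11166273 (Zscan4d, - strand), chr7:11397824-11397913 (Zscan4f, + strand), chr7:103416548-103416637 (Usp17lc, + strand), chr7:103252586-103252675 (Usp17ld, - strand) and chr7:104856910-104856999 (Usp17la, + strand). All 6 are written 5′ to 3′ on the strand of the gene.
Zscan4c: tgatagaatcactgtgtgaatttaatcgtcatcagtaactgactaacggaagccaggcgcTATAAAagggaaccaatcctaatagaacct
Zscan4d: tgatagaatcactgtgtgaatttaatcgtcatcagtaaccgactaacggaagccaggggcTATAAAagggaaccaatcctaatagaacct
Zscan4f: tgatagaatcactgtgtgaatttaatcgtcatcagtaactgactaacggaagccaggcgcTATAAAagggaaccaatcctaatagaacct
Usp17lc: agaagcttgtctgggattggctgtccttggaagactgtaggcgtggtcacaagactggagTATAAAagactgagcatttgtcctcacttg
Usp17ld: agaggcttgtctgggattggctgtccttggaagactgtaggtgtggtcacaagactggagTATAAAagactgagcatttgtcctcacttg
Usp17la: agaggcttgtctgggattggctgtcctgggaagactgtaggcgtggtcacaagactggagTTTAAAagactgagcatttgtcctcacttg

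Zscan4c and Zscan4f were identical over these 90 bases, and Zscan4d differed from each of them at 2. Usp17lc differed from Usp17ld at 2 bases and from Usp17la at 3. The TATAAA motif began 54 bases before the annotated start in Zscan4c, 65 bases in Zscan4d and 31 bases in Zscan4f, so the same stretch sits at different distances from the annotated starts. In Usp17lc it began 88 bases before the start. TATAAA, searched on both strands, was present in the windows of all 4 members and in 13.6% of 32851 RefSeq windows of the same length. GATTNAATC, a motif of the double homeobox type searched on both strands, was in 0.268% of all windows and in none of the 8 windows found for these families. Only exact matches were counted, and sites that differ from the motif by a base were not searched. The stretches shown lie before the annotated starts, and transcript sequences were not compared. Short reads from near-identical transcripts can align to more than 1 copy, and how the authors assigned them is not given in the sources used here. Single copies are therefore uncertain, and family sums are given beside them.

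Dux was highest in early 2-cell embryos, and the summed Usp17l genes were highest in the late 2-cell control, both also with each library rescaled to the same sum. The Zscan4 sum was high in both libraries, and which was higher turned with the scaling: 13.8 FPKM in early 2-cell and 22.2 in control as deposited, but 64.7 in early 2-cell and 63.4 in control per 1000000 after rescaling, which was added after seeing the data. The Tcstv genes were higher in the control than in PN5 and mTBE, and their early 2-cell level is unknown for the reason given with their values. The plot of levels by library shows the deposited values. In these pooled embryos fewer expressing cells and less RNA per cell cannot be told apart.

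**Figure D1:**
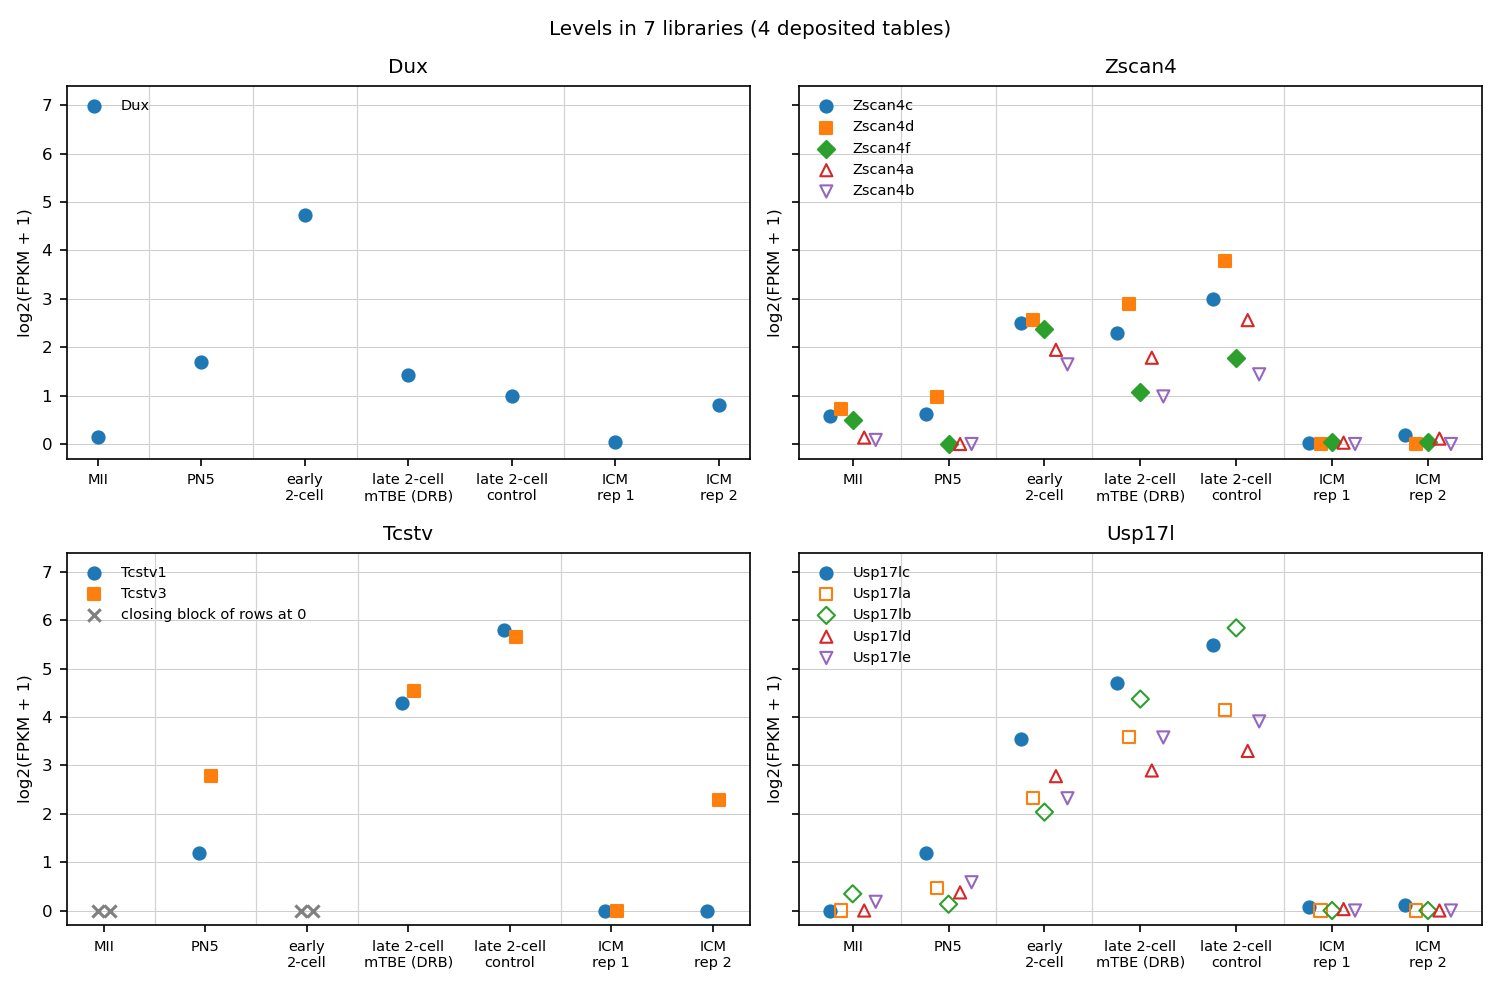
Level on the log2(FPKM + 1) scale (vertical axis) in each of the 7 libraries (horizontal axis, by stage), 1 panel per family; filled symbols are the 7 genes, open symbols other copies of the same family, and grey vertical lines separate stages. Dux peaks in the early 2-cell library at 25.4 FPKM, and the Usp17l genes together are highest in the late 2-cell control at 139.7 FPKM, while the Zscan4 genes are high in both libraries, in an order that turns with scaling; grey crosses mark listed zeros of Tcstv1 and Tcstv3 in MII and early 2-cell that fall in a closing block of zero rows.

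Dux was at 0.105 FPKM in MII, 2.24 in PN5, 25.4 in early 2-cell, 1.68 in mTBE, 0.991 in control, and 0.0321 and 0.746 in the ICM libraries. The early 2-cell library stood alone, with PN5 next. The other symbols in the tables that start with Dux, Duxbl1, Duxbl2 and Duxbl3, are homeobox relatives and no near-identical copies of it. They were at 16.5 to 17.5 FPKM in MII and 11.5 to 11.6 in early 2-cell and were listed at 0 in PN5, mTBE and control. They were among 35 of 3585 genes at 10 FPKM or more in both MII and early 2-cell that were listed at 0 in all 3 libraries of the shared table, so these zeros are not read as absence.

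The Zscan4 members were low before the 2-cell stage and close to each other when they first appeared. Their sum was 1.57 FPKM in MII, 1.51 in PN5, 13.8 in early 2-cell, 11.5 in mTBE, 22.2 in control, and 0.0428 and 0.164 in the ICM libraries. Zscan4c was at 0.499 FPKM in MII, 0.538 in PN5, 4.70 in early 2-cell, 3.90 in mTBE, 6.95 in control, and 0.0188 and 0.139 in ICM. Zscan4d was at 0.648 FPKM in MII, 0.973 in PN5, 4.90 in early 2-cell, 6.48 in mTBE, 12.8 in control, and was listed at 0 in both ICM libraries. As deposited, both copies were highest in the control. After rescaling to the same sum this held for Zscan4d, at 23.1 in early 2-cell and 36.6 in control, but not for Zscan4c, at 22.1 in early 2-cell and 19.8 in control. Zscan4f instead had its highest value in the early 2-cell library: 0.419 FPKM in MII, a listed 0 in PN5, 4.16 in early 2-cell, 1.11 in mTBE, 2.44 in control, and 0.0240 and 0.0253 in ICM. Zscan4f made up 30.2% of the 3-gene sum in early 2-cell, 9.66% in mTBE and 11.0% in control. Zscan4d made up 35.6% in early 2-cell, 56.4% in mTBE and 57.8% in control. The split between copies was alike in the late pair and unlike that of the separately normalized early 2-cell table. The bases over which Zscan4c and Zscan4f match, shown above, lie before the annotated starts and do not bear on reads from transcripts. The part of read assignment in this split was not tested. Zscan4a, a further copy, was highest in the control and Zscan4b in early 2-cell, with Zscan4a at 2.86 FPKM in early 2-cell, 2.44 in mTBE and 4.90 in control, and Zscan4b at 2.13 FPKM in early 2-cell, 0.977 in mTBE and 1.71 in control.

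Tcstv1 and Tcstv3 had the highest FPKM of the 7 genes in the control library. Tcstv1 was at 1.27 FPKM in PN5, 18.6 in mTBE and 54.4 in control, and was listed at 0 in both ICM libraries. Tcstv3 was at 5.91 FPKM in PN5, 22.1 in mTBE and 49.6 in control, and was listed at 0 in ICM replicate 1 and at 3.84 in ICM replicate 2. Both were listed at 0 in MII and in early 2-cell. Those zeros cannot be read as absence. The final 100 rows of the MII and early 2-cell tables were all at 0 in both, and Tcstv1 and Tcstv3 lay among them. Of the 61 shared symbols found only there, 19 were at 1 FPKM or more in PN5. Nlrp4g, for example, had 94.0 FPKM in control and 257 in PN5 but a listed 0 in MII and early 2-cell, and Taf1a had 28.7 FPKM in control and 114 in PN5 beside the same zeros. Both example genes were chosen after their values were seen.

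Usp17lc had a listed 0 in MII, 1.28 FPKM in PN5, 10.6 in early 2-cell, 24.9 in mTBE, 43.9 in control, and 0.0587 and 0.0827 in ICM. This gene was already well above PN5 in the early 2-cell library and highest in the control. The 5 Usp17l rows together had 0.403 FPKM in MII, 2.55 in PN5, 27.6 in early 2-cell, 72.9 in mTBE, 139.7 in control, and 0.0791 and 0.0827 in ICM. Usp17lb passed Usp17lc as the highest copy in the control at 56.3 FPKM, after 0.0947 in PN5, 3.10 in early 2-cell and 19.7 in mTBE. It made up 11.2% of the 5-gene sum in early 2-cell, 27.0% in mTBE and 40.3% in control. Usp17la, Usp17ld and Usp17le lay between 8.84 and 16.6 FPKM in control.

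In late 2-cell control against PN5 embryos, within 1 table, 6 of the 7 genes were at least 2-fold higher (a difference of 1 or more in log2(FPKM + 1)), beside 30.5% of 13022 genes. Their median difference was 2.81, against 0.28 over all genes and a median log2 ratio of -0.13 for genes at 5 FPKM or more in both libraries. Tcstv1 was higher by 4.61, Usp17lc by 4.30, Tcstv3 by 2.87, Zscan4d by 2.81 and Zscan4c by 2.37 on this scale. Zscan4f was at 2.44 FPKM in control and listed at 0 in PN5. Dux was the exception, at 0.991 FPKM in control against 2.24 in PN5, a difference of -0.70, which became -1.10 with a pseudocount of 0.1 FPKM. In the mTBE library the same 6 genes were at least 2-fold higher than in PN5, beside 29.4% of 13489 genes, with a median of 1.74, a Dux difference of -0.28 and a shift of -0.18. In both comparisons Zscan4c, Zscan4d and Zscan4f, below 1 FPKM in PN5, passed the filter through the late library alone. Their part in these counts is a description, and for Zscan4f, listed at 0 in PN5, the filter and the pseudocount fix the call.

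Early 2-cell embryos were set against MII oocytes and against PN5 zygotes to place the first appearance of these transcripts. Of the 5 genes that reached 1 FPKM in MII or early 2-cell, all 5 were at least 2-fold higher in early 2-cell, where 3.98% of 10669 genes were. Each passed the filter through early 2-cell alone, so this count is a description. Genes at 5 FPKM or more in both libraries had a median log2 ratio of -0.57, so these genes were higher against a downward shift of the rest. Dux differed by 4.58 in log2(FPKM + 1), or by 5.13 once that shift was removed. Zscan4c differed by 1.93 (2.41 without the shift), Zscan4d by 1.84 (2.33) and Zscan4f by 1.86 (2.34). Usp17lc was at 10.6 FPKM in early 2-cell and listed at 0 in MII. Against PN5 the same 5 genes were at least 2-fold higher in early 2-cell, beside 6.75% of 10837 genes, and the shift was larger at -0.87. Zscan4c, Zscan4d and Zscan4f, below 1 FPKM in PN5, again passed the filter through early 2-cell alone. Their part in this count is a description. Dux differed by 3.03 (3.87 without the shift), Usp17lc by 2.35 (3.16) and Zscan4f was listed at 0 in PN5. Tcstv1 and Tcstv3 counted as lower, beside 39.2% of genes, through the listed zeros described above.

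In PN5 zygotes against MII oocytes 4 genes reached 1 FPKM, each only in PN5, and counted as 2-fold higher there, beside 8.77% of 10711 genes. For Tcstv1, Tcstv3 and Usp17lc, listed at 0 in MII, the filter and the pseudocount fix that call, so the count is a description only. Dux was at 2.24 FPKM in PN5 against 0.105 in MII, a difference of 1.55, with a shift of 0.33 between the tables. Usp17lc was at 1.28 FPKM in PN5 against a listed 0 in MII. The other 2 were Tcstv1 and Tcstv3, whose MII values lie in the zero block. The 3 Zscan4 members were below 1 FPKM in both libraries, with a sum of 1.51 FPKM in PN5 against 1.57 in MII.

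In the late 2-cell control against the early 2-cell library the families went in different directions. Dux was at least 2-fold lower in control, at 0.991 FPKM against 25.4 in early 2-cell (difference -3.73), where 8.62% of 13126 genes were lower. Usp17lc was higher in control by 1.95 and Zscan4d by 1.23, and both Tcstv genes were higher against listed zeros, beside 49.6% of all genes. A shift of 0.60 separated the tables, and without it Zscan4d differed by 0.68, which is under 2-fold, and Usp17lc by 1.36. Zscan4f differed by -0.59 and Zscan4c by 0.48, and the sign of Zscan4c turned to -0.03 without the shift and to -0.15 with each library rescaled to the same sum. That rescaling also put Zscan4f at -1.37 and Zscan4d at 0.65.

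The mTBE and control libraries were compared to see how transcripts stood after a block of elongation that ended on entry into the 2-cell stage. Tcstv1 and Tcstv3 were at least 2-fold lower in mTBE embryos, the Zscan4 members and Usp17lc were lower by less than 2-fold, and Dux was higher by less than 2-fold. Thus 2 of the 7 genes were at least 2-fold lower, where 9.99% of 13726 genes were, and 0 were at least 2-fold higher, where 5.57% were. Their median difference was -0.79 in log2(FPKM + 1), against -0.05 over all genes, and 6 of 7 lay below 0. With that median most genes lay below 0 too. The 6 are copies of the Zscan4, Tcstv and Usp17l families and so not independent of each other. Among genes of similar level the median was -0.22 at a mean of 5 to 20 FPKM, with 13.7% at least 2-fold lower, and -0.09 at 20 to 100 FPKM, with 11.0%. Below a mean of 5 FPKM, where Dux and Zscan4f fell, the median was 0.08. There 7.29% of genes were at least 2-fold lower and 10.7% at least 2-fold higher. Single listed zeros occur in this pair, since 15 genes at 10 FPKM or more in control were listed at 0 in mTBE and 15 the other way round, but none of the 7 genes was at 0 in either.

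**Figure D2:**
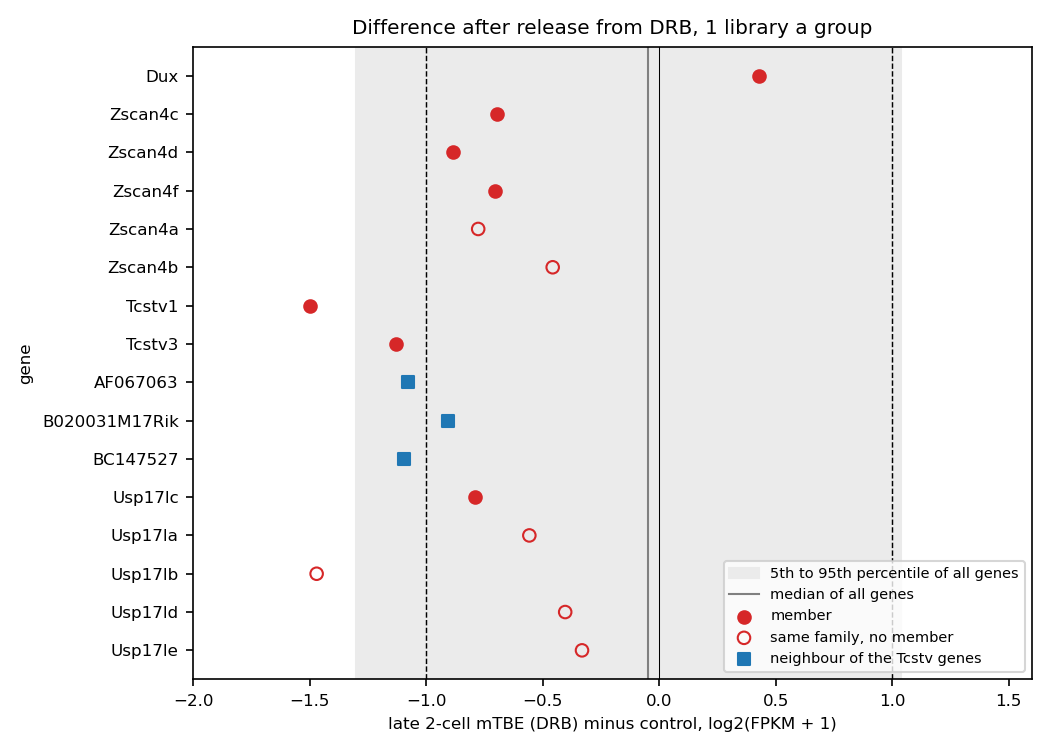
Late 2-cell mTBE minus control in log2(FPKM + 1) (horizontal axis) for each gene (vertical axis), 1 library a group and so without error bars. Filled circles are the 7 genes and open circles other copies of their families. Squares are BC147527 and B020031M17Rik, neighbours of the Tcstv genes, and AF067063, drawn with them though its place was not examined. Dashed lines mark a 2-fold difference, the grey line the median of all genes and the grey band their 5th to 95th percentile. Dux lies at 0.43 and every other gene drawn lies below 0, with Tcstv1 lowest at -1.50.

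Of the 7 genes, Tcstv1 and Tcstv3 differed most. Tcstv1 was at 18.6 FPKM in mTBE against 54.4 in control, 34.2% of the control level and a difference of -1.50. Tcstv3 was at 22.1 FPKM in mTBE against 49.6 in control, 44.6% and -1.13. Their sum, 40.7 FPKM in mTBE against 104 in control, was at 39.2% of the control level. Tcstv1 lay below the 5th percentile of all genes, which was -1.30, and Tcstv3 above it. BC147527 and B020031M17Rik, which lie between Tcstv1 and Tcstv3 in the RefSeq gene order, were lower as well. So was AF067063, whose place in that order was not examined. All were picked after their values were seen. AF067063 was at 71.4 FPKM in mTBE against 152 in control (-1.08), BC147527 at 12.7 in mTBE against 28.2 in control (-1.09) and B020031M17Rik at 7.95 in mTBE against 15.8 in control (-0.91). Both symbols that the tables hold between Tcstv1 and Tcstv3, B020031M17Rik and BC147527, were therefore expressed at the late 2-cell stage.

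The Zscan4 members stood near one another in this comparison. Their sum was at 11.5 FPKM in mTBE against 22.2 in control, 51.7% of the control level. Zscan4d was at 50.5%, Zscan4c at 56.1% and Zscan4f at 45.6% of control, with differences of -0.89, -0.70 and -0.70 in log2(FPKM + 1). With a pseudocount of 0.1 FPKM in place of 1, Zscan4f differed by -1.07 and counted as 2-fold lower. Zscan4a (-0.78) and Zscan4b (-0.46) lay in the same direction.

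Usp17lc was at 24.9 FPKM in mTBE against 43.9 in control, 56.8% of the control level and a difference of -0.79. The other copies of its family spread more widely. Usp17lb was at 34.9% of control and differed by -1.47, whereas Usp17ld was at 72.8% (-0.40) and Usp17le at 78.0% (-0.33). Usp17la differed by -0.56. The 5 rows together were at 52.2% of the control level.

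Dux was at 1.68 FPKM in mTBE against 0.991 in control, 169% of the control level and a difference of 0.43. Both values are low beside the 25.4 FPKM of the early 2-cell library.

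**Figure D3:**
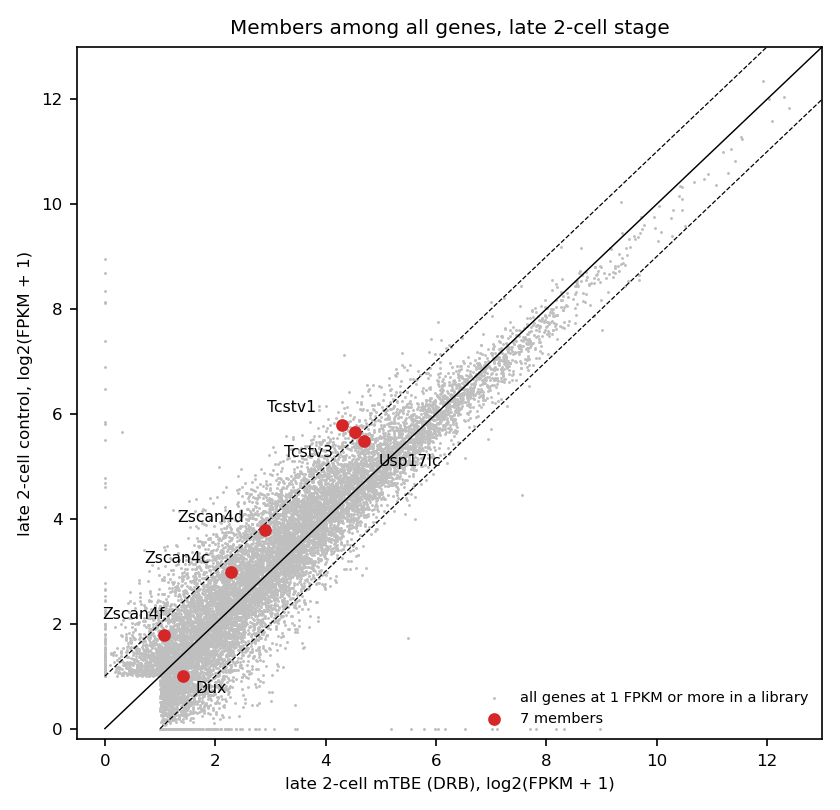
Each gene at 1 FPKM or more in a late 2-cell library, placed by its log2(FPKM + 1) in mTBE (horizontal axis) and in control (vertical axis); red points are the 7 genes, the solid line marks equal levels and the dashed lines a 2-fold difference. Tcstv1 and Tcstv3 lie above the upper dashed line, Zscan4c, Zscan4d, Zscan4f and Usp17lc between it and the solid line, and Dux below the solid line; points on the axes are genes listed at 0 in 1 library.

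Because PN5, mTBE and control share a table, the excess over PN5 could be compared between the late libraries. The PN5 library came from untreated zygotes at 30 h, whereas the mTBE zygotes were taken at 23 h and held in DRB. PN5 is thus a common reference, and the level in DRB-held zygotes was not measured. The mTBE excess was 32.7% of the control excess for Tcstv1 and 37.1% for Tcstv3. It was 52.4% for Zscan4c, 46.4% for Zscan4d, 45.6% for Zscan4f and 55.5% for Usp17lc. The other copies ranged from 34.8% for Usp17lb to 77.2% for Usp17le. Every member above PN5 in control was thus also above PN5 in mTBE, by a smaller amount. Among the 31 other 2-cell genes that were at least 2-fold higher in control than in PN5, this share ran from 24.9% to 83.0% with a median of 43.5%. These genes were picked by the same control excess that divides the share, so their shares are a description only. Of the 36 tested from that list, 21 were 2-fold or more lower in mTBE than in control and 0 were higher. Over all 13726 genes, 9.99% were lower and 5.57% higher. The median of the list was -1.10, against -0.05 over all genes.

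Known regulators of Dux were examined as 2 lists. The 4 activators measured (Dppa2, Dppa4, Nelfa and Trp53), which promote Dux expression in mouse embryonic stem cells, gave 0 genes 2-fold apart in either direction between mTBE and control and a median of -0.38. Dppa4 differed most among them, at 17.3 FPKM in mTBE against 30.4 in control (-0.78). Of 15 repressors measured, which hold Dux or its targets silent in mouse embryonic stem cells, 3 were at least 2-fold lower, 0 were higher, and the median was -0.38, beside 9.99% of all genes lower and 5.57% higher. Trim28, a corepressor recruited by zinc finger proteins, was at 32.5 FPKM in mTBE against 82.1 in control (-1.31). Rif1 was at 201 FPKM in mTBE against 210.1 in control, and Pcgf6 at 52.7 in mTBE against 69.3 in control. Chaf1a, a subunit of a histone chaperone, was at 23.3 FPKM in mTBE against 40.1 in control. In early 2-cell against PN5, 0 of the 4 activators were 2-fold apart, and 5 of 15 repressors were lower and 2 higher, beside 39.2% of all genes lower and 6.75% higher. Zscan4 is linked to telomeres, and of 20 telomere genes measured between mTBE and control, 4 were lower, 0 were higher, and the median was 0.008, beside the same shares of all genes. Nhp2, a telomerase and snoRNA protein, was at 19.3 FPKM in mTBE against 64.2 in control, and Tinf2 and Acd were within 2-fold.

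The Usp17l copies flank a stretch of genes of another kind. In gene order Usp17le, Usp17lb and Usp17la are adjacent at its end, and Usp17ld and Usp17lc lie near its start. The tables hold 76 other symbols between Usp17ld and Usp17la, of which 60 are olfactory receptor genes. Of these 60, 52 were listed at 0 in both late 2-cell libraries and 1 reached 1 FPKM, Olfr653, with a highest value of 1.35 FPKM. Over all 24028 genes, 6701 were listed at 0 in mTBE and 7577 in control. At 1 FPKM or more were 13022 in mTBE and 12472 in control. Olfactory receptor genes elsewhere were not examined. Of the 76 symbols 5 reached 1 FPKM in a late library, namely Trim6, Trim34a, Trim12c, Trim30a and Olfr653. In the same interval the 5 Usp17l genes ran from 6.44 to 24.9 FPKM in mTBE and from 8.84 to 56.3 FPKM in control. Between Zscan4a and Zscan4f the tables hold 1 other symbol, which did not reach 1 FPKM.

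**Figure D4:**
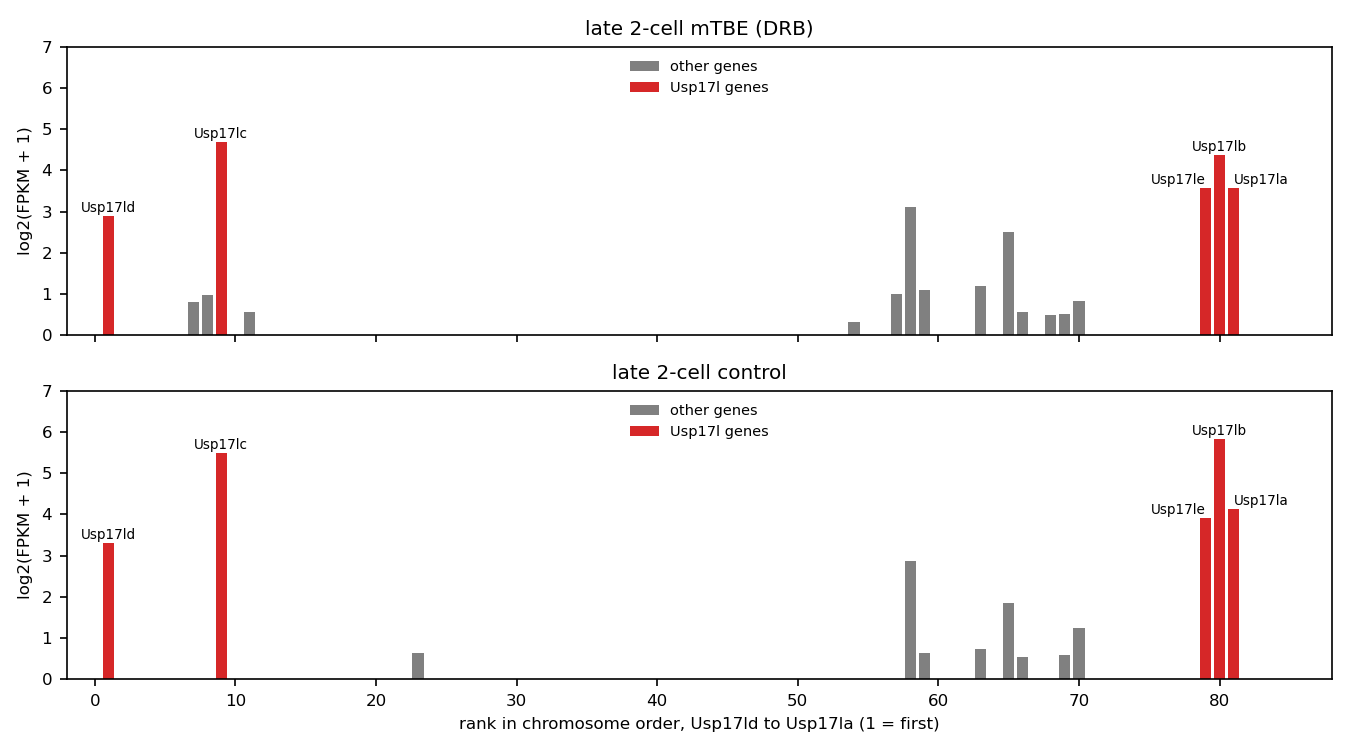
Level in log2(FPKM + 1) (vertical axis, bars from 0) of each tabled symbol from Usp17ld to Usp17la by its rank in RefSeq gene order (horizontal axis), in the late 2-cell mTBE library (top) and control library (bottom). The 5 Usp17l genes (red) are above every other symbol in the control and 4 of them are in mTBE, where 1 other gene is higher than Usp17ld; most other symbols (grey), many of them olfactory receptor genes, are at 0.

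In the ICM libraries all of these transcripts but Tcstv3 and Dux in replicate 2 were at 0.139 FPKM or less. Of the 6 genes that reached 1 FPKM in control or on average in ICM, all 6 were at least 2-fold lower in ICM, beside 47.8% of 13515 genes, with differences of -1.75 to -5.79 in log2(FPKM + 1). Tcstv1 and Zscan4d were listed at 0 in both ICM libraries. Tcstv3 aside, these genes passed the filter through the control alone, so this count too is a description. Tcstv3 differed between the ICM replicates, at 0 in replicate 1 and 3.84 FPKM in replicate 2, a gap of -2.27 in log2(FPKM + 1) where the spread of such gaps over 9607 genes had a standard deviation of 0.561. Dux also differed, at 0.0321 and 0.746 FPKM. Of the 10 oocyte markers, 1 reached 1 FPKM in replicate 1 and 4 in replicate 2, with summed FPKM of 11.6 and 34.3. Any link of these markers to the Tcstv3 and Dux values was not tested. ICM and late 2-cell libraries differ in protocol as well as in stage, and the trophectoderm markers given above were high in both ICM libraries; their part in these values was not tested. Genes at 5 FPKM or more in both had a median log2 ratio of 0.13.

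The genes with the most similar profile over the 5 total RNA libraries were found by dividing log2(FPKM + 1) by its highest value and averaging the absolute difference, in percent of the highest value. For Dux the nearest were 4930507D05Rik (15.6%), Gm21304 (16.6%) and 4930413G21Rik (16.7%), all highest in early 2-cell at 11.5, 17.1 and 21.7 FPKM. These 3 were at 0.0560 FPKM or less in PN5, where Dux was at 2.24. For the Zscan4 sum they were C1ql1 (5.38%), a complement-related secreted protein, Rrs1 (6.92%), a ribosome assembly factor, and the histone gene Hist1h3h (7.15%). For Usp17lc they were the protocadherin Pcdh8 (3.22%), Gm8994 (4.59%) and the cell cycle inhibitor Cdkn1a (5.05%). For the Tcstv sum the nearest was the neighbour BC147527 (2.95%), followed by Tfpi (3.60%) and Btg3 (4.21%), a ranking that rests on the listed zeros. Over the 3 libraries of the shared table, a choice made after the zeros were seen, the nearest to the Tcstv sum were Rlf, Dync1li1 and Cyc1.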

How the data were processed

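The authors deposited FPKM per gene symbol in 4 tables: PN5 with both late 2-cell libraries, the 2 ICM libraries, MII, and early 2-cell. Total RNA was depleted of ribosomal RNA, per the labels' protocols. Tools and build listed in the submitters' processing notes are TopHat2 2.1.1, Cufflinks 2.1.1, CASAVA 1.8 and mm9, with no step given for any of them. The sources used here do not say how reads with several matches or strand were handled, so near-identical, overlapping or antisense genes are uncertain. Value columns of no sample numbered 0. The MII column bears a name that a chromatin sample also bears and was taken as the MII total RNA library with which its table is listed.

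Rows sharing a symbol were summed, and comparisons ran over the 24028 symbols common to the tables, with no rescaling. Differences were calculated on the log2(FPKM + 1) scale, which understates the fold of low genes, among genes at 1 FPKM or more in either group. A difference of at least 1 was counted as 2-fold. For ICM the mean of the 2 libraries was used. No test was possible with 1 library a group. Read depth is unknown: at most 4 of 580 genes below 0.3 FPKM shared a ratio between the late libraries. In ICM, 137 of 1972 such genes shared the ratio 0.947 (replicate 1 over replicate 2), as Zscan4f did, so the lowest values rest on few reads.

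The genes and lists were chosen with earlier results of these data known. Genes named are the 7 members, all rows of their families, up to 4 genes of highest mean level per list and the 3 most similar profiles per family among genes at 5 FPKM or more in a library; others are said to be chosen after their values were seen. Upstream sequences came from RefSeq, GRCm38.p6, which differs from the authors' build, and gene order from a RefSeq table of GRCm38, with no coordinate joined to the files. Dux, Tcstv1 and Tcstv3 had no upstream sequence there, and neither did the family copies Zscan4a and Usp17le. Calculations used Python 3.11.15, pandas 2.3.3, numpy 2.4.6 and Biopython 1.88. The calculation of differences returned known fold changes put into genes of a real library, a check of the code for that step only.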

Additional observations from a re-analysis of the deposited data

How the results depend on the processing

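No difference that counted as 2-fold changed sign under the alternatives run: a pseudocount of 0.1 FPKM, no filter or one of 5 FPKM, scaling to the median ratio or to a sum of 1000000, the highest of repeated rows, summed families, and leaving out either ICM library. Of 212 recalculated differences of single genes 93 moved by more than the spread of a single ICM library (SD 0.397 in log2). Of these, 39 moved with the sum and 36 with the pseudocount. The highest of repeated rows gave 50 of the 212 and could not move any, since each gene had 1 row in every table. The sign of Zscan4c in control against early 2-cell turned with both scalings. With families summed to 4 units, the number 2-fold apart was 1 for mTBE against control (2 singly), 3 for control against PN5 (6), 3 for mTBE against PN5 (6), 3 for early 2-cell against MII (5), 4 for early 2-cell against PN5 (7), 3 for control against early 2-cell (5) and 3 for ICM against control (6). With the 5 FPKM filter it was 2 for early 2-cell against MII, 1 for PN5 against MII and 3 for early 2-cell against PN5, because fewer genes were tested. Without Tcstv1 and Tcstv3, an alternative added after seeing the data, it was 2 for PN5 against MII (4 with them) and 3 for control against early 2-cell. Without ICM replicate 1 or 2 it stayed 6. Scaling to the median ratio moved the higher share of all genes called from 12.1% to 36.4% for early 2-cell against MII, from 48.7% to 20.9% for PN5 against MII, from 14.7% to 47.2% for early 2-cell against PN5 and from 85.2% to 70.6% for control against early 2-cell. The 5 FPKM filter moved it from 35.8% to 18.4% for mTBE against control. No paired analysis was possible because each total RNA group holds 1 library and no test was run.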
